A study of Homo sapiens with 5 samples.

Results

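Intron retention was described for the RecQ helicase genes RECQL, RECQL4, RECQL5, BLM and WRN in 5 RNA sequencing libraries made from polyadenylated RNA of DLD-1, an established line of human colorectal adenocarcinoma. Every intron whose gene field carried one of these 5 symbols was taken, which gave 41 introns of the 34560 listed in at least 1 of 3 tables. The table of WBP11 RNAi listed 27 of them, that of SNW1 RNAi 30 and that of WBP11 auxin 34. The family was chosen by the intron retention ratios of these same libraries, in which introns of RECQL4 and RECQL5 were already known to be retained. The retention values are therefore a description and carry no test.

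The groups held 1 library each. DLD-1 LacZeo cells received 100 nM siRNA against WBP11 or against SNW1 for 72 h, and both were set against 1 control library of DLD-1 LacZeo cells, whose label gives no treatment and whose file header calls it control RNAi. In the other pair, DLD-1 LacZeo osTIR1 cells were given 500 µM auxin for 48 h, with the WBP11 library set against the auxin control. Per the series' design text, the WBP11 auxin cells lack endogenous WBP11 and carry a transgene with an auxin-inducible degron tag, while the sample labels give both auxin libraries the same genotype. Both auxin libraries share the LacZeo osTIR1 background and the auxin. Differences between the cell lines and loss of WBP11 cannot be told apart in this pair.

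RecQ helicases unwind DNA ahead of replication, recombination and repair, and their loss leaves cells prone to chromosome rearrangement. Inherited defects in BLM, WRN and RECQL4 cause Bloom, Werner and Rothmund-Thomson syndromes. RECQL5 binds RNA polymerase II, and RECQL, also called RECQ1, acts in the restart of reversed replication forks. WBP11 and SNW1 are spliceosome proteins, and a retained intron is one that stays in polyadenylated RNA after the others have been removed.

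The intron retention ratio is given here in percent, as deposited. For most introns it is close to mean read depth over the intron divided by that depth plus the reads spliced at its ends. The listed introns of a table held between 2987572 and 5527186 spliced reads in a library. Members that could be compared rested on a depth plus spliced reads of 20 to 472 per library. Relative to all listed introns, spliced reads of the targeted gene stood at 6.75% of control for WBP11 after WBP11 RNAi and at 10.2% for SNW1 after SNW1 RNAi. In the WBP11 auxin library WBP11 stood at 38.0%, but there the protein is the target, so this value does not check the depletion. Of the epithelial markers, KRT18 and CDH1 were listed with spliced reads in all 3 tables, KRT8 after SNW1 RNAi only, and EPCAM, KRT20 and VIL1 in none. No intron of the fibroblast or leukocyte markers was listed, so these tables do not test the cell type by absence. With 1 library per group there is no replicate check, and each 95% interval covers counting error only.

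An intron is called higher or lower here when the depleted and control ratios lay 10 percentage points or more apart, with a depth plus spliced reads of at least 10 in both libraries, and "rose" is used in this sense only. After WBP11 RNAi, 7 of the 27 members rose, against 9.07% of all 16068 introns compared. After SNW1 RNAi 14 of 28 rose, against 16.6% of 23366. After WBP11 auxin 11 of 34 rose, against 13.8% of 21828. No member was called lower, where 1.69%, 0.359% and 1.37% of all introns were. The median change of the members was 1.92, 10.0 and 3.22 points, beside 0.756, 2.63 and 1.45 points over all introns compared. These shares describe genes that were picked for such changes. Subtracting the median change of all introns left 8 of the 28 members higher after SNW1 RNAi and did not alter the other counts of rises. By a doubling of the ratio with a pseudocount of 0.01, 7 of 27, 17 of 28 and 18 of 34 members rose, beside 27.5%, 57.4% and 36.0% of all introns, so by that rule the members' share in the RNAi comparisons was near that of all introns. RECQL4 held most of the rises, and without it they were 3 of 13, 6 of 13 and 3 of 19.

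RECQL4, a helicase of replication initiation and end resection, contributed the densest set of introns. Its gene lies on chromosome 8, 144511291 to 144517826, minus strand (ENSG00000160957.11), within hg38. Of its 20 introns 13 are up to 100 bp long, and 16 were listed. It had 4 of 14 introns higher after WBP11 RNAi, 8 of 15 after SNW1 RNAi and 8 of 15 after WBP11 auxin. In the same comparisons 9.07%, 16.6% and 13.8% of all introns rose, and 16.4%, 26.9% and 39.2% of those up to 100 bp. Over the 13 introns listed in every table, the median ratio was 13.2% after WBP11 RNAi and 19.6% after SNW1 RNAi, against 8.54% in the control. In the auxin pair it was 37.3% in the WBP11 library, against 9.93% in the auxin control. Of these 13 introns, 3 rose in every comparison, 2 in a pair of comparisons, 6 in a single one and 2 in none.

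Introns 4, 10 and 15 were the ones that rose in every comparison. Intron 15, 75 bp at 144512772 to 144512846, was kept in 75.1% after WBP11 RNAi and 44.6% after SNW1 RNAi, against 25.9% in the control. In the auxin pair it was kept in 95.8% after WBP11 auxin, compared with 42.2% in the auxin control, with 16 spliced reads left, against 226. The 3 differences were 49.2 points (37.5 to 58.9), 18.7 points (6.43 to 29.8) and 53.6 points (48.1 to 58.6). Retention at this intron was thus highest in the 2 libraries depleted of WBP11.

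Intron 10, 79 bp at 144514363 to 144514441, had a ratio of 41.3% after WBP11 RNAi and 54.5% after SNW1 RNAi, against 9.94% in the control. It reached 80.9% after WBP11 auxin, compared with 27.0% in the auxin control. The differences were 31.3 points (19.1 to 43.0), 44.6 points (32.0 to 55.5) and 54.0 points (46.5 to 60.4). Here all depleted libraries stood well above their controls, and the interval of the direct difference between the RNAi libraries included 0.

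At intron 4, 285 bp at 144516765 to 144517049, the order was another one. The ratio was 39.9% after WBP11 RNAi and 75.5% after SNW1 RNAi, against 27.0% in the control. In the auxin pair it was 41.3% after WBP11 auxin, compared with 27.3% in the auxin control. The differences were 12.8 points (0.717 to 23.9), 48.5 points (36.0 to 58.7) and 13.9 points (6.25 to 21.4). This intron was highest after SNW1 RNAi. Recomputed from exact junction reads or from the reads at the larger end, its difference was 12 points after WBP11 RNAi. After WBP11 auxin it was 21.3 points by either recomputation. The deposited ratio thus departs there from depth over depth plus spliced reads. A transcript of GENCODE release 29 covers its first 217 bases, and the first stop codon in frame with the upstream exon begins at base 31 of the intron.

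**Figure D1:**
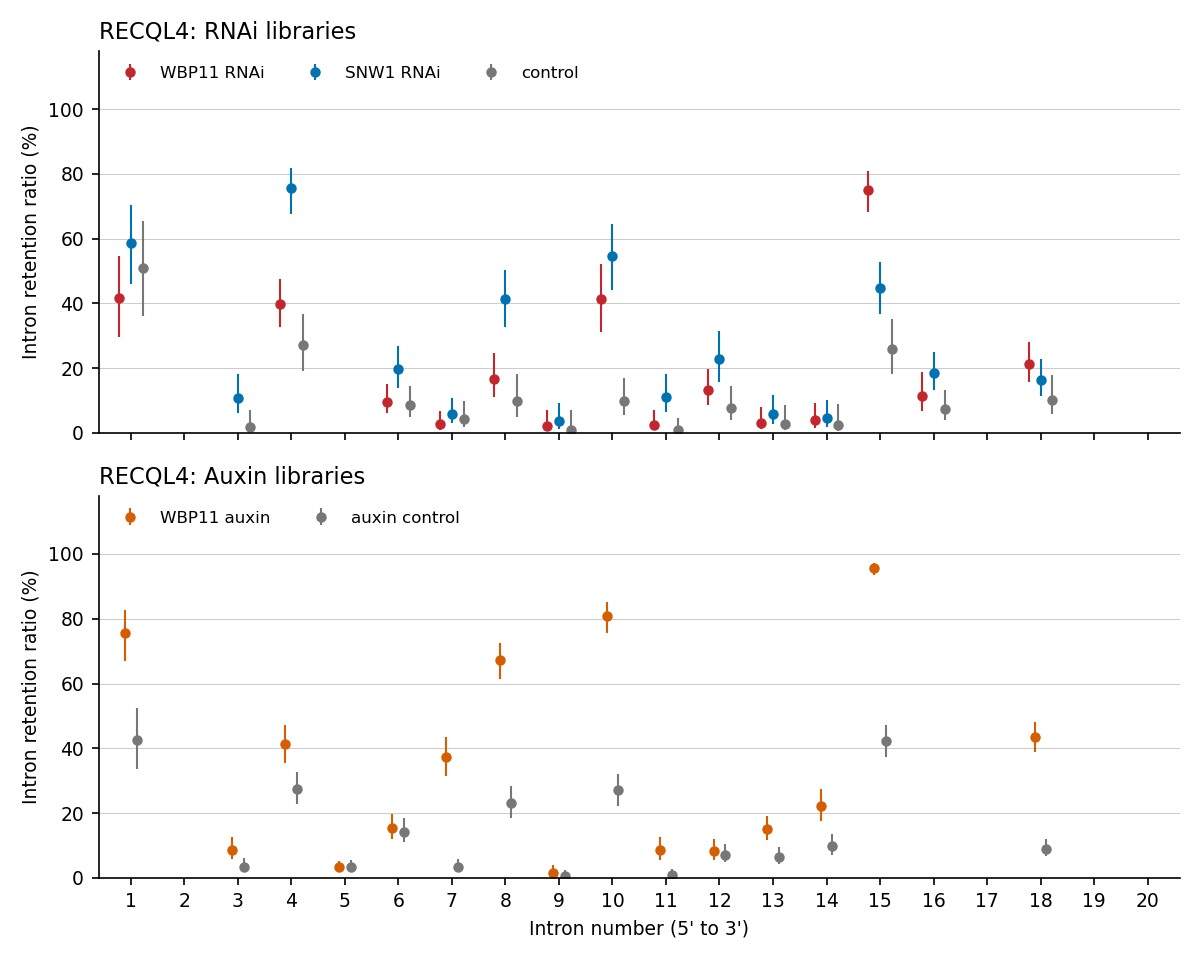
Intron retention ratio in percent at the listed introns of RECQL4, numbered along the transcript, in the RNAi libraries (upper panel) and the auxin libraries (lower panel). Points are single libraries and bars are Wilson 95% intervals for counting error; after WBP11 auxin introns 1, 7, 8, 10, 15 and 18 stand far above the auxin control, while intron 4 is highest after SNW1 RNAi at 75.5%.

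Other RECQL4 introns rose in some comparisons. Intron 8, 77 bp, had 16.8% after WBP11 RNAi and 41.3% after SNW1 RNAi, against 9.80% in the control, and 67.2% after WBP11 auxin, compared with 23.1% in the auxin control. The difference was 7.0 points (-3.12 to 16.2) after WBP11 RNAi, 31.5 points (19.6 to 41.7) after SNW1 RNAi and 44.1 points (36.2 to 51.2) after WBP11 auxin. Intron 18, 76 bp, had 21.3% after WBP11 RNAi and 16.3% after SNW1 RNAi, against 10.3% in the control, and 43.4% after WBP11 auxin, compared with 8.98% in the auxin control. It rose in both comparisons of WBP11, by 11.1 points (1.75 to 19.2) and 34.4 points (28.9 to 39.8), and its difference of 6.0 points (-3.00 to 14.0) after SNW1 RNAi stayed under the threshold.

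Introns 1, 7 and 14 of RECQL4 passed the threshold in the auxin pair alone. Intron 7, 83 bp, was at 37.3% after WBP11 auxin, compared with 3.31% in the auxin control, a difference of 34.0 points (27.6 to 40.3). In the RNAi libraries it was at 2.71% after WBP11 RNAi and 5.85% after SNW1 RNAi, against 4.24% in the control. Intron 14, 79 bp, was at 22.3% after WBP11 auxin, compared with 9.93% in the auxin control (12.3 points, 6.49 to 18.3). Intron 1, 65 bp, overlaps an annotated exon and was already high everywhere, at 41.6% after WBP11 RNAi and 58.7% after SNW1 RNAi, against 50.8% in the control, and at 75.6% after WBP11 auxin, compared with 42.7% in the auxin control. Whether these introns respond differently in the auxin pair than in the RNAi pair was not tested, since cells, duration and depletion method all differ.

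Introns 6, 11, 12 and 16 of RECQL4 rose after SNW1 RNAi and in no other comparison, intron 16 not being in the auxin table. Intron 12 had 22.8% after SNW1 RNAi and 13.2% after WBP11 RNAi, against 7.69% in the control. Intron 6 had 19.6% and intron 16 had 18.6% after SNW1 RNAi, against 8.54% and 7.25% in the control. Intron 11 lay just inside the threshold, with a rise of 10.2 points after SNW1 RNAi, and intron 3 just outside it, with 9.17 points. After WBP11 auxin intron 11 had 8.48%, compared with 0.955% in the auxin control. That difference of 7.52 points (4.14 to 11.6) was under the threshold, but its interval left out 0. Introns 9 and 13 stayed within 10 points in all 3 comparisons. Intron 5, listed for the auxin pair only, had 3.25% after WBP11 auxin, compared with 3.47% in the auxin control, each on 438 spliced reads.

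In the WBP11 auxin library the authors' software marked RECQL4 introns 1, 4, 7, 8 and 10 with the warning MinorIsoform, which it gave to no RECQL4 intron of the RNAi libraries or the auxin control. Leaving out every member with a warning in either library left 4 of 14 rises after WBP11 RNAi, 9 of 16 after SNW1 RNAi and 3 of 15 after WBP11 auxin. Under the same filter 8.96%, 16.6% and 15.9% of all introns rose, so the members' share after WBP11 auxin was near that of all introns. Introns 13 to 16 also lie within an antisense gene, AC084125.4, and the files name the directional output of the software. BLM intron 5 overlaps a snoRNA gene on the other strand. Without the members that overlap another gene, the rises were 6 of 22, 12 of 24 and 9 of 30. Beside them, 9.06%, 16.6% and 13.8% of all introns rose.

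RECQL5, the helicase that travels with RNA polymerase II, was retained at fewer introns and on thinner data. It lies on chromosome 17, 75626854 to 75667189, minus strand (ENSG00000108469.13), and 10 of its 19 introns were listed. It had 3 of 8 introns higher after WBP11 RNAi, 5 of 9 after SNW1 RNAi and 3 of 7 after WBP11 auxin. Beside these counts, 9.07%, 16.6% and 13.8% of all introns rose. Introns 13 and 15 rose after both siRNAs and were not listed in the auxin table. Their ends are shown because they carry the largest values of the gene. The sequences come from GENCODE release 29 transcripts that run through these introns, hg38, minus strand, with the conserved GT or AG at the intron edge in capitals. Each window holds 20 exon bases and 60 intron bases.

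RECQL5 intron 13 donor end, chr17:75630559-75630638: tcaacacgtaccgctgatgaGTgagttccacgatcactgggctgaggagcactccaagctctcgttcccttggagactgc
RECQL5 intron 13 acceptor end, chr17:75630258-75630337: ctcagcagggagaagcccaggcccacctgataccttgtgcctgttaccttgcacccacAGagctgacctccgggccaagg
RECQL5 intron 15 donor end, chr17:75629648-75629727: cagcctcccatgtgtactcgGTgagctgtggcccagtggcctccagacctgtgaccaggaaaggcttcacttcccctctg

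Both donors continue with GAG after the GT, and the bases before the acceptor of intron 13 include 14 pyrimidines in the last 20 ahead of the AG. Intron 13 is 60.4% G and C over its 341 bases. Read on from the upstream exon, it meets a stop codon at once, since the TGA that begins at base 2 of the intron is in frame, after 572 complete codons of the 991 and the codon that spans the intron's edge. The first 147 bases of intron 15, the part covered by a transcript, hold no stop codon in frame.

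RECQL5 intron 15, 232 bp at 75629476 to 75629707, was kept in 62.9% after WBP11 RNAi and 81.3% after SNW1 RNAi, against 46.8% in the control. The differences were 16.1 points (-1.21 to 31.8) and 34.4 points (14.8 to 48.7). Intron 13, at 75630278 to 75630618, was kept in 25.5% after WBP11 RNAi and 38.4% after SNW1 RNAi, against 11.3% in the control, with differences of 14.2 points (2.88 to 25.6) and 27.1 points (11.6 to 43.2). At both introns the order was SNW1 RNAi, WBP11 RNAi, control, but the intervals of the direct differences between the RNAi libraries, -18.4 points (-35.2 to 2.02) and -12.9 points (-30.3 to 3.95) for WBP11 minus SNW1, included 0.

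Introns 10 to 13 of RECQL5 flank exons 11, 12 and 13, which are 37, 59 and 74 bases long. Exons 11 and 12 are shown in full because they are the short exons on either side of intron 11.

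RECQL5 exon 11, chr17:75630974-75631010: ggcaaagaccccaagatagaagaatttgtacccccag
RECQL5 exon 12, chr17:75630779-75630837: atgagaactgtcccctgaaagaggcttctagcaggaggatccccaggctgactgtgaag

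Intron 11, between these exons, was listed for WBP11 RNAi only and had 27.8%, against 8.35% in the control, a difference of 19.5 points (6.10 to 34.8). Intron 12 had 12% after SNW1 RNAi and 3.55% after WBP11 RNAi, against 1.39% in the control, and 1.19% after WBP11 auxin, compared with 9.38% in the auxin control. Its rise of 10.6 points after SNW1 RNAi had an interval of 1.69 to 26.5. Intron 10 lay just under the threshold after SNW1 RNAi, at 9.82 points.

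Outside that stretch, RECQL5 introns 4, 17 and 19 rose. Intron 17, 229 bp, had 9.41% after WBP11 RNAi and 10.5% after SNW1 RNAi, against 0.306% in the control, and 14.3% after WBP11 auxin, compared with 2.69% in the auxin control. Intron 4, 770 bp, had 3.26% after WBP11 RNAi and 13.8% after SNW1 RNAi, against 2.46% in the control, and 18.4% after WBP11 auxin, compared with 3.46% in the auxin control. Intron 19, the last, had 23.7% after WBP11 auxin, compared with 3.89% in the auxin control, on 24 spliced reads, against 35. In the RNAi libraries intron 19 had 0.984% after WBP11 RNAi and 3.84% after SNW1 RNAi, against 3.40% in the control. The intervals of 3 of the RECQL5 rises named here included 0: intron 15 after WBP11 RNAi, intron 4 after SNW1 RNAi and intron 17 after WBP11 auxin. In the auxin pair the rises of introns 4, 17 and 19 all carried a warning of the authors' software. It was MinorIsoform for intron 17 and uneven coverage for intron 19, both in the WBP11 library. For intron 4 it was uneven coverage in the auxin control.

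**Figure D2:**
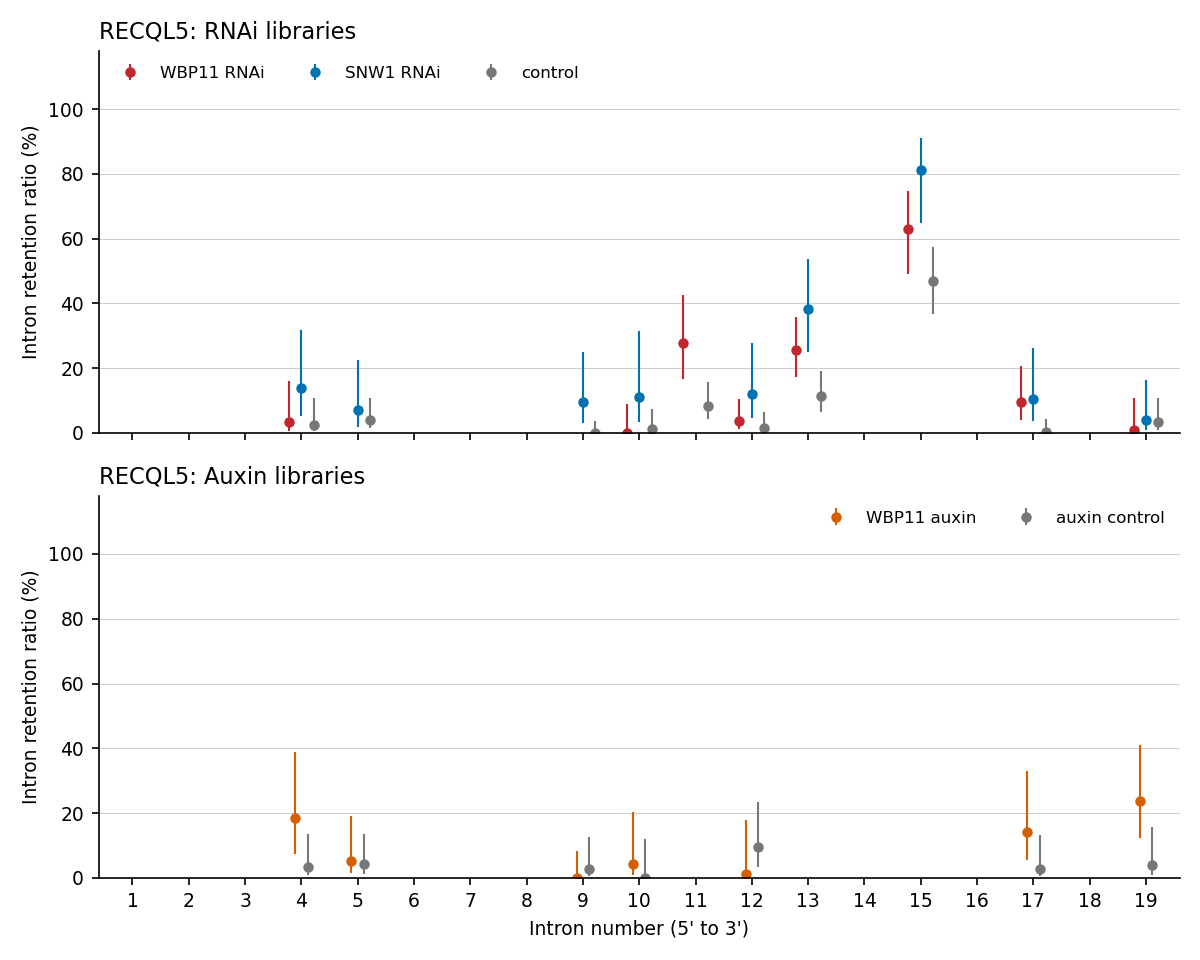
Intron retention ratio in percent at the listed introns of RECQL5, numbered along the transcript, in the RNAi libraries (upper panel) and the auxin libraries (lower panel). Points are single libraries and bars are Wilson 95% intervals for counting error; introns 13 and 15 are highest after SNW1 RNAi, at 38.4% and 81.3%.

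WRN, a helicase that also has an exonuclease domain, had 8 of 34 introns listed and 1 rise in the 3 comparisons. Intron 9, 2402 bp on chromosome 8 at 31081297 to 31083698, was at 24.4% after SNW1 RNAi and 7.96% after WBP11 RNAi, against 2.98% in the control. The rise after SNW1 RNAi was 21.4 points (6.52 to 40.4), on 20 spliced reads, against 54, with a warning of uneven coverage in the depleted library. In the auxin pair it was at 5.75% after WBP11 auxin, compared with 0.680% in the auxin control. The short intron 25 of WRN, 80 bp, had 8.70% after WBP11 auxin, just under the threshold, where the auxin control had an intron depth of 0 beside 34 spliced reads. The Wilson upper limit of that 0 is 10.2%, and a limit of 3 counts gives 8.82%.

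BLM, the helicase that dissolves joined recombination intermediates with TOP3A and the RMI proteins, had 5 of 21 introns listed and none called. Its largest difference among introns compared was 2.04 points (-4.40 to 7.54), at intron 14 after WBP11 auxin. RECQL had 2 of 14 introns listed, both in the auxin table. Intron 9, its only one up to 100 bp, was at 2.71% after WBP11 auxin, compared with 0.435% in the auxin control, and intron 4 at 1.43%, against 0.116%. Introns that a table does not list were not analysed here.

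The 5 genes differ in intron length. The choice of members did not use length, but it used the retention values whose rises are counted here. The counts by length are therefore a description and carry no test. RECQL4 holds 10 of the member introns of up to 100 bp compared in each pair. The median annotated intron is 86.5 bp in RECQL4 and 341 bp in RECQL5, against 1169 bp in RECQL, 2138 bp in BLM and 2738 bp in WRN. Members of up to 100 bp rose at 3 of 13 introns after WBP11 RNAi, 6 of 12 after SNW1 RNAi and 8 of 14 after WBP11 auxin. Among all introns of that length, 16.4%, 26.9% and 39.2% rose. Members of over 500 bp rose at 0 of 3, 2 of 5 and 1 of 11 introns, beside 3.28%, 8.70% and 6.03% of all introns of that length. Within RECQL4 in the auxin pair, 7 of the 10 introns up to 100 bp rose and 1 of the 5 longer ones. After SNW1 RNAi those counts were 5 of 10 and 3 of 5. The longer RECQL4 introns fell into classes of up to 250 and up to 500 bp, where 13.3% and 11.8% of all introns rose after WBP11 auxin and 24.0% and 21.9% after SNW1 RNAi. The plot of change against length shows the RECQL4 points gathered at the short end in the auxin pair.

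**Figure D3:**
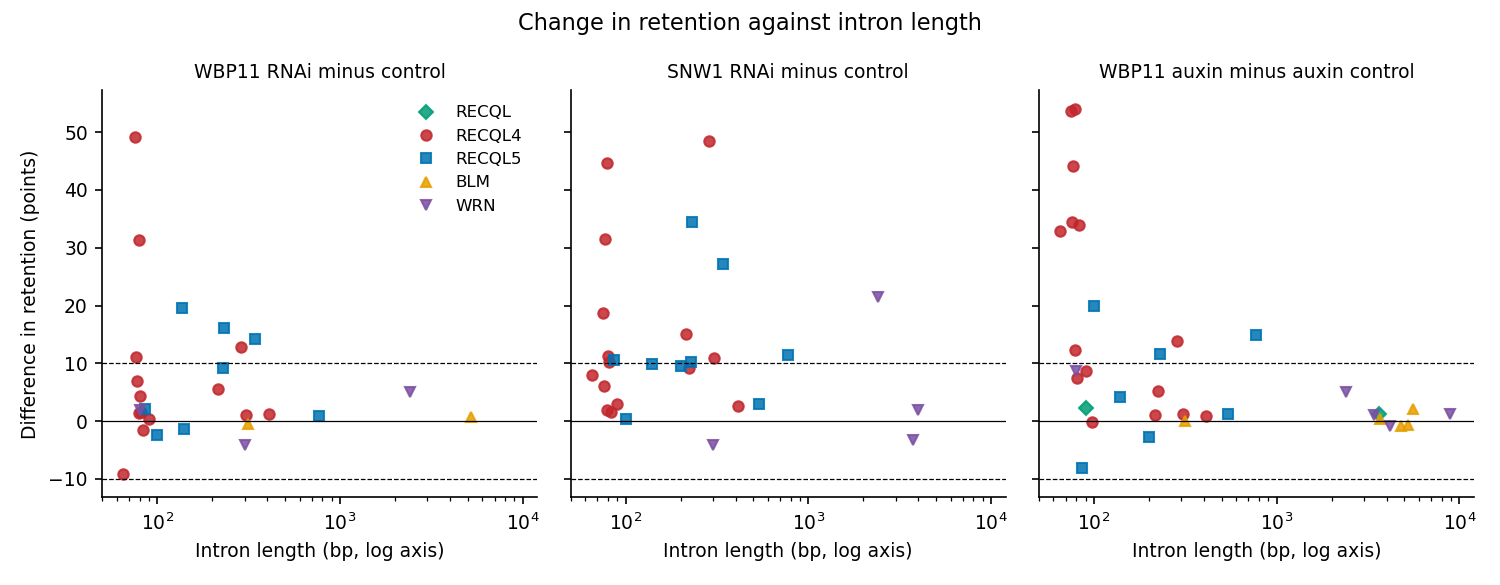
Difference in retention in percentage points, depleted minus control library, against intron length on a log axis, for the member introns compared in each pair. Each point is 1 intron and dashed lines mark 10 points in either direction; the 6 introns above 20 points after WBP11 auxin are all of RECQL4 and up to 83 bp long, while WRN intron 9 at 2402 bp is the only long intron above 20 points after SNW1 RNAi.

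The RNAi libraries were also set beside each other at the 23 members compared in both, without the control. WBP11 RNAi gave the higher ratio at RECQL4 intron 15, by 30.5 points (19.8 to 40.3). SNW1 RNAi gave the higher ratio, with an interval that left out 0, at 5 introns, all of RECQL4. These were intron 4, with -35.6 points (-45.4 to -24.6) for WBP11 minus SNW1, intron 8, with -24.5 points (-35.2 to -12.9), and introns 6, 11 and 12, with -8.62 to -9.92 points. At the other 17 members the interval included 0, which does not show that the libraries were alike. No share over all introns was computed for this comparison. Over all introns compared with the control, the median change was 2.63 points after SNW1 RNAi and 0.756 points after WBP11 RNAi. Whether the direction of these counts is particular to the members was therefore not tested.

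In the auxin control and the control, 25 members had a value in each. The auxin control was higher with an interval that left out 0 at 5 of them, RECQL4 introns 8, 10, 14 and 15 and RECQL5 intron 12. RECQL4 intron 10 was at 27.0% in the auxin control and 9.94% in the control, a difference of 17 points (8.56 to 23.8), and intron 15 at 42.2% and 25.9%, a difference of 16.3 points (5.75 to 25.4). No member was lower in the auxin control by this measure. The 2 controls differ in genotype and in auxin, and the one without auxin is named control RNAi. The auxin and RNAi comparisons thus start from unequal levels at these introns. No share over all introns in both controls was computed, so whether this difference is particular to these members was not tested.

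Spliced reads give a view of the genes that the retention ratio does not. They were summed over the listed introns of a gene and set relative to the total over all listed introns. That total is part of a library and not its depth. A read that spans several introns counts at each of them, so the intervals given may be too narrow. Retention itself lowers spliced reads, and in bulk RNA fewer cells with a transcript and less of it per cell cannot be told apart. RECQL5 had 336 spliced reads after WBP11 RNAi, against 597 in the control, which is 59.3% (51.7 to 67.9). It had 210 after SNW1 RNAi, against 693 in the control over its introns in that table, or 40.2% (34.2 to 46.9). After WBP11 auxin it had 178, against 268 in the auxin control, or 57.6% (47.4 to 69.9). The RNAi values share 1 control library. Quartiles were taken over genes with at least 2 listed introns and at least 20 spliced reads in the control. All 3 RECQL5 values lay below the lower quartile of these genes, which was 71.6%, 74.0% and 76.0%. With the intron depth added to the spliced reads of RECQL5 they were 64.6%, 45.6% and 58.6%. Of the epithelial markers listed in every table, the keratin KRT18 stood at 81.5%, 43.2% and 46.4% in the same comparisons and the cadherin CDH1 at 104%, 49.9% and 130%. Their part in the RECQL5 values was not tested.

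RECQL4 moved differently in the pairs. Its spliced reads stood at 121% of control (112 to 131) after WBP11 RNAi and 135% (125 to 146) after SNW1 RNAi. Both lay within the quartiles of the genes that passed the same minimums, 71.6 to 130 and 74.0 to 144. After WBP11 auxin its spliced reads stood at 61.3% of the auxin control (58.5 to 64.3), with 2923 reads, against 4136. With intron depth added the value was 79.7%. The 61.3% lay below the lower quartile of such genes in that pair, 76.0%. BLM had 15 spliced reads after SNW1 RNAi, against 51 in the control, or 39.0% (20.4 to 70.4), also below the lower quartile there. After WBP11 RNAi BLM stood at 147%, above the upper quartile, on 71 reads, against 51, and after WBP11 auxin at 127% (108 to 149). WRN stood at 125% (97.7 to 161), 116% (91.4 to 146) and 129% (108 to 154), and RECQL at 84.2% (72.5 to 97.7) after WBP11 auxin.

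**Figure D4:**
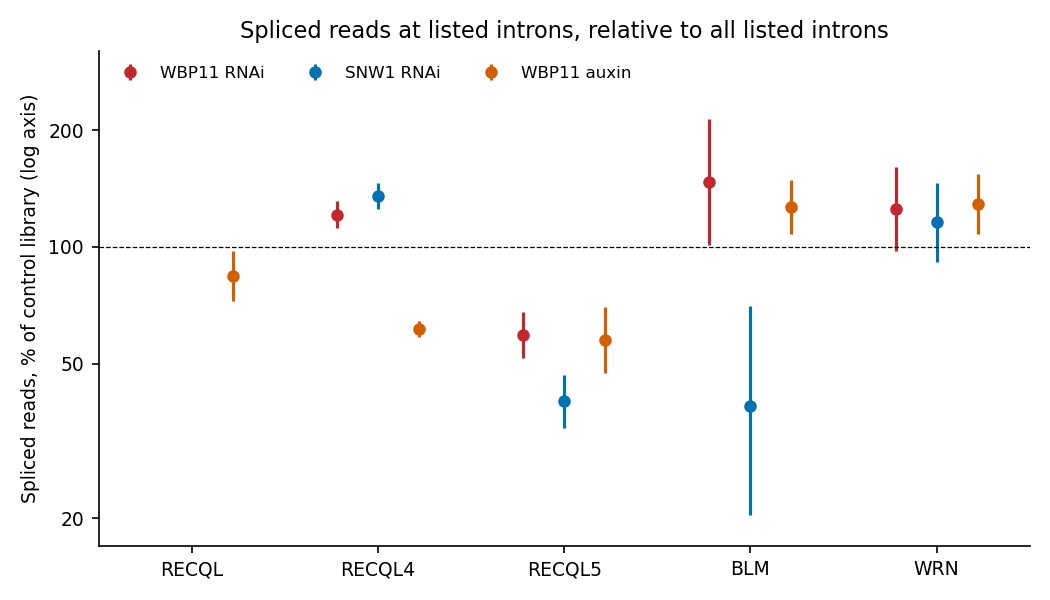
Spliced reads at the listed introns of each gene in the depleted library as a percentage of its control library on a log axis, after scaling both to the total of all listed introns. Points are single comparisons and bars are exact 95% binomial intervals for counting error. They treat counts at the introns of a gene as independent, though a read can span several introns, so they may be too narrow. RECQL5 lies at 59.3%, 40.2% and 57.6%, below the dashed line at 100% in all 3 comparisons.

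Genes that work with the RecQ helicases were described as a list of 20. It held TOP3A, RMI1 and RMI2 of the BLM complex, FANCM, the resection nucleases DNA2 and EXO1, the single-strand binding proteins RPA1 to RPA3, the WRN partners XRCC5, XRCC6, WRNIP1 and FEN1, and the helicases BRIP1, RTEL1, DDX11, FBH1, HELQ, POLQ and PIF1. After WBP11 RNAi 1 of 28 introns rose and 1 was lower, in 10 genes with an intron compared. After SNW1 RNAi 3 of 26 rose in 12 genes, and after WBP11 auxin 5 of 40 in 13 genes, with none lower. Their shares higher were 3.57%, 11.5% and 12.5%, beside 9.07%, 16.6% and 13.8% of all introns. These shares rest on few rises, and a difference from all introns was not tested. No intron of the BLM complex, FANCM or RPA was called in any comparison, but few could be compared. For the BLM complex these were 3, 1 and 3 introns, each time of 1 gene, after WBP11 RNAi, SNW1 RNAi and WBP11 auxin. For RPA they were 1, 2 and 3 introns, of 1, 2 and 2 genes. FANCM had 3 introns compared, in the auxin pair only. So few introns cannot show that these genes were spared.

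DDX11, a helicase of sister chromatid cohesion, rose at the same intron in every comparison, 702 bp on chromosome 12 at 31101131 to 31101832. It had 26.7% after WBP11 RNAi and 35.6% after SNW1 RNAi, against 15.7% in the control, and 39.4% after WBP11 auxin, compared with 19.9% in the auxin control. The differences were 11.1 points (-0.895 to 22.4), 20 points (6.11 to 33.5) and 19.5 points (11.8 to 26.7). DDX11 has near-identical copies in the genome, so its reads are uncertain.

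POLQ, the polymerase of microhomology end joining, had 21.6% after WBP11 auxin, compared with 3.10% in the auxin control, at an intron of 3052 bp (18.5 points, 9.33 to 27.2). Both POLQ introns compared in that pair rose. The same intron had 14.3% after SNW1 RNAi, against 1.87% in the control, with an interval of the difference from -5.42 to 40.8 points. WRNIP1, a WRN-binding ATPase, had 20.4% after WBP11 auxin, compared with 4.86% in the auxin control (15.6 points, 8.22 to 22.8). PIF1, a helicase that unwinds G-quadruplexes, had 37.6%, against 23.1%, in the same pair, with an interval of the difference from -5.76 to 35.0 points. DNA2 had 31.3% after SNW1 RNAi, against 2.92% in the control, and HELQ 4.19% after WBP11 RNAi, against 17%, each on depths plus spliced reads under 13 and with an interval that included 0.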

How the data were processed

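The files are 3 tables of 1 depleted against 1 control library, made by the authors with IRFinder from STAR alignments to hg38, per the file headers; the submitters' processing notes also name RSEM and bedtools, without versions. The retention ratio is a fraction as deposited, as is the share of intron bases covered. Coverage signal over each intron was deposited as a mean depth, and spliced reads are a count per intron, as deposited, unscaled between libraries. The deposited ratio was within 0.01 of depth over depth plus spliced reads for 92.9% to 97.5% of introns. The p-values of the tables were not used. The control had the same depth and reads at all 13412 introns found in both RNAi tables.

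Ratios have Wilson and differences Newcombe 95% intervals, on depth plus spliced reads. Depth is a mean over bases and reads are not independent molecules, so they cover counting error only. Introns were matched to GENCODE release 29, with Python 3.11.15 and SciPy 1.17.1. Scripts were tested on simulated data. Every member was accounted for; members called in at least 1 comparison are described. The members and lists were chosen with earlier results of these data known. Alternatives were other call sizes, depth minimums, centring, known exons, warnings and other ratios.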

Additional observations from a re-analysis of the deposited data

Results flagged for a closer look

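Members whose ratio moved in opposite directions, by at least 5 points each way, were looked at again; the difference between the effects was not tested. RECQL4 intron 1, which overlaps an annotated exon, differed by -9.19 points (-28.0 to 10.5) after WBP11 RNAi, by 7.94 points (-11.5 to 26.8) after SNW1 RNAi and by 32.9 points (19.8 to 44.5) after WBP11 auxin. RECQL5 intron 12 differed by 10.6 points (1.69 to 26.5) after SNW1 RNAi and by -8.19 points (-22.2 to 9.69) after WBP11 auxin, where it had 20 spliced reads, against 32 in the auxin control.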

How the results depend on the processing

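Counts of member rises were 7 after WBP11 RNAi, 14 after SNW1 RNAi and 11 after WBP11 auxin, and counts of falls were 0. With a threshold of 20 points in place of 10 the rises were 2 of 27, 6 of 28 and 6 of 34, beside 3.53%, 6.49% and 6.38% of all introns. A rule of a doubled ratio with a pseudocount of 0.01 gave 7 of 27, 17 of 28 and 18 of 34, beside 27.5%, 57.4% and 36.0% of all introns. Its falls were 3, 1 and 2, beside 12.9%, 1.54% and 6.30% of all introns. With a pseudocount of 0.05 it gave 4 rises of 27 after WBP11 RNAi, beside 9.22% of all introns. It then gave 1 fall of 34 after WBP11 auxin, beside 1.19%. With a threshold of 5 points there was 1 fall after WBP11 RNAi and 1 after WBP11 auxin, beside 5.41% and 3.97% of all introns. After SNW1 RNAi, a depth minimum of 50 left 8 rises of 14 members, beside 13.5% of all introns, and median centring 8 of 28, beside 12.7%. Leaving out introns with a warning left 4 of 14, 9 of 16 and 3 of 15, beside 8.96%, 16.6% and 15.9% of all introns. Leaving out RECQL4, an alternative added after seeing the data, left 3 of 13, 6 of 13 and 3 of 19. Beside them, 9.05%, 16.6% and 13.8% of all introns rose. The 9 rises of partner introns over the 3 comparisons became 20 at 5 points, 1 at 20 points, 33 with the pseudocount of 0.01, 2 without warnings and 5 where the interval had to leave out 0. The cause of these changes was not tested, beyond fewer introns being compared.

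Recomputing ratios from the exact junction reads reversed none of the 89 single differences; RECQL4 intron 7 after WBP11 auxin shifted most, to 45.1 points from the deposited 34.0, and RECQL4 intron 13 after WBP11 auxin came to 10.8, past the threshold. RECQL4 intron 4 after WBP11 auxin came to 21.3 from 13.9, intron 8 to 54.4 from 44.1 and intron 10 to 61.3 from 54.0. From the reads at the larger end, introns 4, 7 and 10 came to 21.3, 44.7 and 61.3 points, and intron 8 to 43.9. The deposited ratios of introns 4, 7 and 10 in this comparison thus depart from depth over depth plus spliced reads. No paired analysis was possible because each group has 1 library, and no replicate could be left out. RECQL5, BLM and WRN rest on fewer reads than RECQL4. Their intervals are over 10 points wide, as are those of RECQL4 introns 4, 10 and 15 in every comparison.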

Other observations

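BLM could not be compared after SNW1 RNAi, where its 2 listed introns had under 10 reads of depth plus splicing. Intron 5 had 20.6% there, against 2.29% in the control, on 6 spliced reads, against 21, with an interval of the difference from -4.38 to 53.8 points.

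Of the RECQL4 introns that rose, 4, 6, 11 and 15, of 285, 306, 81 and 75 bp, have lengths divisible by 3, and the other 8 do not. Intron 13, of 90 bp, did not rise and has such a length too. Of introns 4, 6, 11 and 15, only intron 4 had a sequence known from its 5' end, and it holds a stop codon in frame. Stop codons in introns 6, 11 and 15 could not be looked for. Intron 1 also holds a stop codon in frame, where a TGA begins at base 28.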
